A study of Labroides dimidiatus with 23 samples.

Results

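Isolated acetylated regions are stretches of histone H3 lysine 27 acetylation (H3K27ac) that stand alone in the genome, with no other shared stretch within 30 kb on either side. They were chosen by measured values, from called peaks alone. Bases under the peaks of at least 3 of 22 libraries, with pieces 200 bp apart or less merged, formed consensus regions of at least 200 bp, and a region counted as isolated when its neighbours on both sides of the same numbered chromosome lay 30 kb or more away. This rule kept 957 of 52979 consensus regions. Another 52002 regions on the 24 numbered chromosomes are called other regions below.

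The libraries came from forebrain of adult cleaner wrasse (Labroides dimidiatus), a reef fish that removes parasites from client fish, and were made by CUT&RUN, in which an antibody against H3K27ac directs a nuclease to cut out the marked chromatin. Fish called familiar knew a client by the time their social preference was tested, while control fish knew neither client. Titles also carry the number 120 or 30 without a unit, which was read as a time and is called the time label here. The groups were familiar 120 with 6 libraries, control 120 with 6, familiar 30 with 6 and control 30 with 5. No strain, sex, age beyond adult or other treatment is given. Familiar 30 replicate 2, a list with few peaks, took no part in choosing the regions, so that 5 libraries of its group entered the tests.

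H3K27ac is placed by acetyltransferases at the promoters and enhancers of active genes, and it is removed by deacetylases. In vertebrates many enhancers lie far from the promoters they act on and differ between cell types more than promoters do. Forebrain holds many cell types, so in such tissue fewer cells with a marked site and less mark per cell cannot be told apart. The peak lists name no genes. Coordinates below are 1-based positions in the deposited lists, no source used here names their genome build, and neither nearby genes nor DNA sequence were analysed here.

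Isolation at this distance was rare. The median distance from a region to its nearer neighbour was 2089 bp over the 52911 regions with a neighbour on both sides, and 41609 bp over the isolated ones. Among the isolated regions 667 had a nearer neighbour between 30 and 50 kb away, 247 between 50 and 100 kb, and 43 at 100 kb or more. Regions with farther neighbours were shorter. The median length was 1998 bp where the nearer neighbour lay under 1 kb away, 1070 bp between 3 and 10 kb, 795 bp between 30 and 50 kb, and 710 bp at 100 kb or more.

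**Figure D1:**
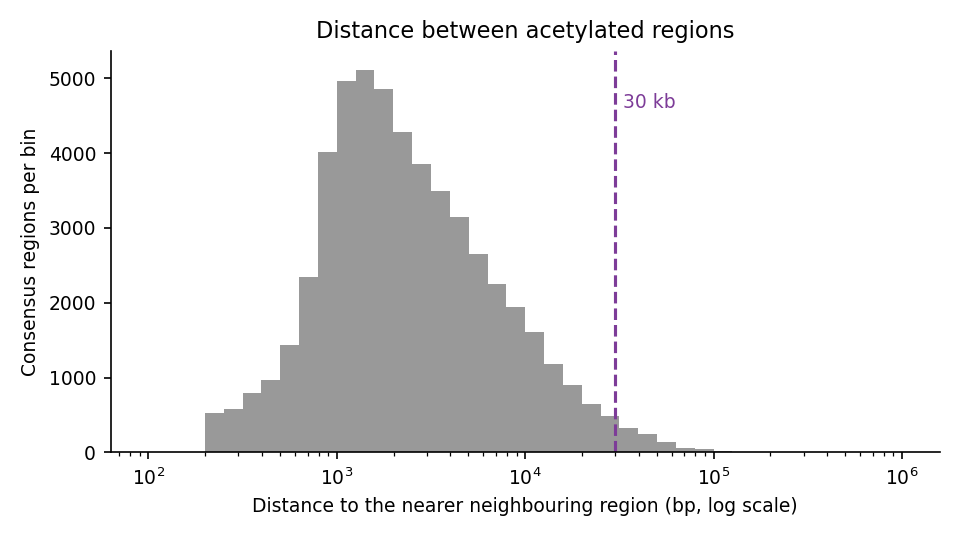
Number of consensus regions per bin (y axis) by the distance to the nearer neighbouring region in bp on a log scale (x axis), with the dashed line at 30 kb. The bulk lies around the median of 2089 bp, and the 957 isolated regions form the thin right tail.

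The limit of 30 kb falls within a continuous tail, as the regions beside it show. Just inside it, a region of 716 bp on chromosome 1 from 920323 to 921038 had gaps of 30 and 64.6 kb and a region of 274 bp on chromosome 11 from 25594748 to 25595021 had gaps of 32.2 and 30.03 kb. Just outside it, a region of 1292 bp on chromosome 22 from 18075539 to 18076830 had gaps of 33.1 and 29.99 kb, and a region of 388 bp on chromosome 17 from 1243857 to 1244244 had gaps of 49.4 and 29.99 kb. A region is called present in a library where that library's peaks cover at least 50% of it, and touched where they cover any base. The regions just inside were present in 6 and 3 of 22 libraries, and those just outside in 8 and 11.

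The gaps around isolated regions were nearly bare of called peaks. The 1697 gaps beside them had a median of 53.3 kb and together spanned 124.6 Mb, or 17.3% of the chromosome length up to the last peak. In 556 gaps (32.8%) no whole peak of any of the 22 libraries was found, and the median gap held 2 peaks. Such emptiness follows from the rule, which admits no other consensus region there.

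Isolated regions were shorter than other regions, with a median of 784 bp against 1295.5 bp, and held 1.06 Mb of sequence against 132.5 Mb. Of the isolated regions 624 (65.2%) were under 1 kb, 298 (31.1%) were 1 to 3 kb, 30 (3.13%) were 3 to 10 kb and 5 (0.522%) were 10 kb or longer. Among other regions 38.5% were under 1 kb and 4.11% reached 10 kb. The median isolated region was present in 8 libraries and touched in 12, against 10 and 18 for other regions. At like length the order for presence was the reverse. The median number of libraries touched was 8 against 7 under 1 kb. It was equal at 20 for regions of 1 to 3 kb and at 22, the highest possible, for regions of 3 to 10 kb. Isolated regions under 1 kb were present in a median of 6 libraries against 5 for other regions of that length, those of 1 to 3 kb in 14 against 12, and those of 3 to 10 kb in 20 against 18.

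Presence in every library also depended on length. Of the isolated regions 70 (7.31%) were present in all 22 libraries, against 4747 other regions (9.13%). By length the isolated share was 2.08% under 1 kb, 14.8% at 1 to 3 kb and 30% at 3 to 10 kb. The share among other regions was 1.43% under 1 kb, 9.21% at 1 to 3 kb and 17.9% at 3 to 10 kb. By touch in every library the shares were nearly equal under 1 kb, at 4.49% of isolated and 4.51% of other regions. At 1 to 3 kb the isolated share was again the higher, at 37.6% against 33.0%. At 3 to 10 kb, with 30 isolated regions, it was the lower, at 60% against 79.96%. These are descriptions of the regions that the same peaks chose, with no test, and no difference is claimed from them.

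**Figure D2:**
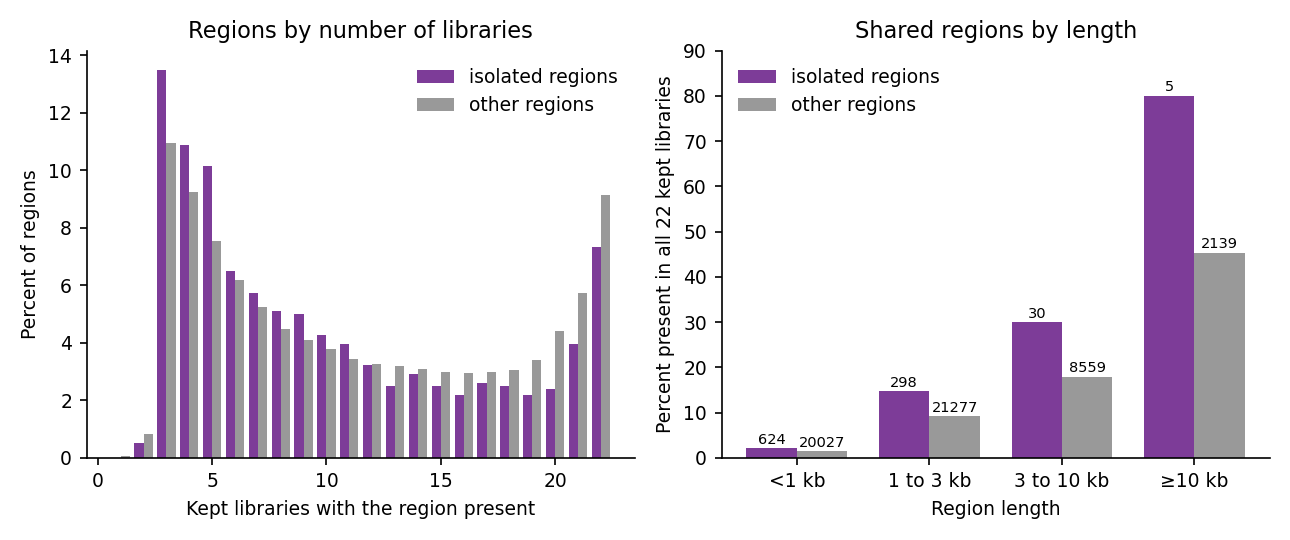
Left, percent of isolated (purple) and other (grey) regions by the number of libraries, of 22, in which they were present. Right, percent present in all 22 libraries by length class, where isolated regions stand at 2.08, 14.8, 30 and 80% and other regions at 1.43, 9.21, 17.9 and 45.4%.

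Isolated regions were spread over all 24 numbered chromosomes but not evenly. Chromosome 7 held 66, chromosome 3 held 59 and chromosome 8 held 57, while chromosome 24 held 4. Per Mb up to the last peak, chromosome 19 stood highest with 2.03 isolated regions, followed by chromosome 7 with 1.91 and chromosome 8 with 1.70. Chromosome 24 was lowest with 0.452, next to chromosome 9 with 0.776. Density ran the other way: chromosome 19 had 61.7 regions per Mb in all, the fewest, and chromosome 24 had 90.2, the most. Such an opposition is built into a rule that asks for empty surroundings.

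The isolated regions present in every library lay on 22 chromosomes. Chromosome 15 held 10 of the 70 and chromosome 11 held 7, whereas chromosome 7, with the most isolated regions, held 0. Along chromosomes, isolated regions took a larger share toward the ends than other regions did, which was not tested. The first 10% of the length to the last peak held 12.4% of isolated regions, against 8.29% of other regions, and the last 10% held 12.3% against 9.18%. In the stretch from 30 to 40% of that length the shares were 7.001% of isolated and 11.3% of other regions.

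**Figure D3:**
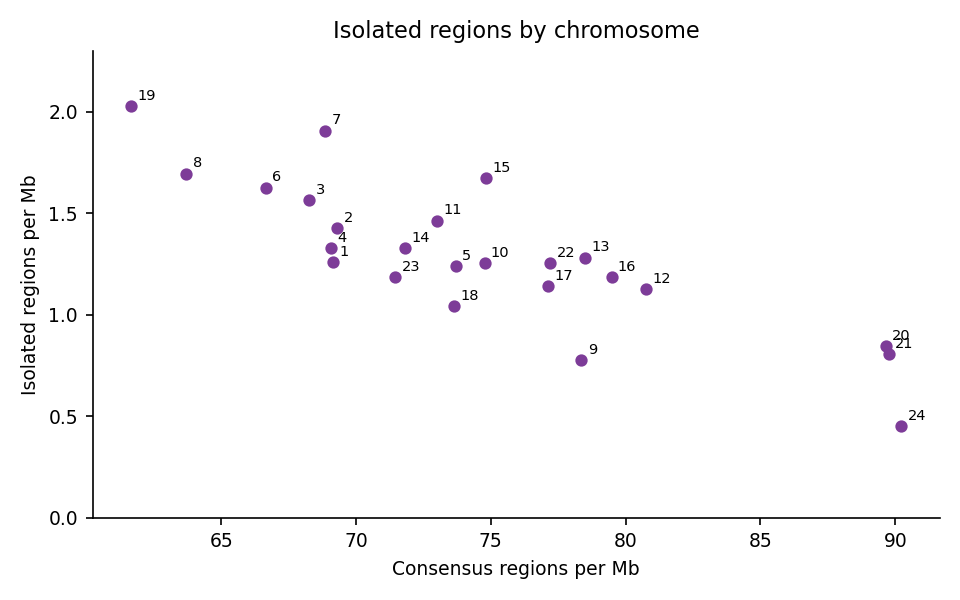
Isolated regions per Mb (y axis) by consensus regions per Mb (x axis) for the 24 numbered chromosomes, each point labelled with its number. Chromosome 19 lies top left at 2.03 isolated and 61.7 consensus regions per Mb, and chromosome 24 bottom right at 0.452 and 90.2.

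Isolated regions also came in chains, in which each is the other's neighbour across a gap of 30 kb or more. Of the 957, 585 stood by themselves, and the others formed 110 pairs, 32 runs of 3, 10 runs of 4, 2 runs of 5 and 1 run of 6. The run of 6 lay on chromosome 7 from 19713483 to 20124400, within a stretch of 558 kb when its outer gaps are counted, and its regions were present in 3 to 8 libraries. A run of 5 on chromosome 13 from 26589281 to 26886576 was mixed, with regions present in 6 to 21 libraries.

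The run of 5 on chromosome 15 from 28911381 to 29090141 differed from these in that all its regions were steady. It lay in a stretch of 384 kb, and its regions of 1147, 1026, 2373, 513 and 1062 bp were present in 22, 22, 20, 22 and 21 libraries. Their mean cover over 22 libraries was 81.8% ± 11.2 (SD), 78.1% ± 10.1, 75.2% ± 19.5, 85.9% ± 7.59 and 85.1% ± 13.1. Every kept library touched all 5 of them, and the library that had no part in the rule touched the first pair.

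The 5 longest isolated regions were domains of over 10 kb, and all 22 libraries had peaks there. Their gaps were not all wide, with 34.6 and 31.6 kb around the domain on chromosome 14. The longest, of 26162 bp on chromosome 23 from 17704790 to 17730951, lay 130.7 and 83.6 kb from its neighbours and was covered by 93.2% ± 4.27. The peaks in it numbered 1 to 4 a library. Its lowest, median and highest cover were 81.7, 92.5 and 94.0% in familiar 120 libraries, 89.3, 93.8 and 98.6% in control 120, 85.6, 94.3 and 98.4% in familiar 30, and 89.5, 95.3 and 99.5% in control 30. The groups overlapped.

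The others were 15959 bp on chromosome 10 from 17428665 to 17444623 with a cover of 90.5% ± 8.02, 14680 bp on chromosome 15 from 21922087 to 21936766 with 87.4% ± 8.94, 13765 bp on chromosome 12 from 5082470 to 5096234 with 88.7% ± 19.2, and 12831 bp on chromosome 14 from 22014532 to 22027362 with 91.6% ± 12.6. The domain on chromosome 12 was the only one of the 5 that missed presence in a library, familiar 120 replicate 3 at 11.2%. Its lowest, median and highest cover were 11.2, 89.8 and 98.7% in familiar 120 and 91.3, 96.0 and 97.8% in control 120. In libraries labelled 30 they were 71.7, 97.4 and 99.96% for familiar and 74.8, 97.1 and 98.8% for control. Leaving that library aside, all kept libraries lay above 70% there.

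The authors give each peak a fold enrichment of signal over background and a −log10 q value, which describe a peak within its own list. Taking the highest fold and the highest −log10 q of each library in a domain, their medians over libraries were 5.66 and 16.4 on chromosome 14, 4.68 and 10.2 on chromosome 23, 4.68 and 10.7 on chromosome 15, 3.89 and 7.03 on chromosome 10, and 3.49 and 5.29 on chromosome 12. A short region could have values in the same range. The region of 502 bp on chromosome 1 from 35867796 to 35868297, the shortest of the 70 present in every library, had a median fold of 5.24 and a median −log10 q of 11.7.

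Of the regions present in every library, the highest mean cover was found in the domains on chromosomes 23 and 14 and in 3 shorter ones. These were 4054 bp on chromosome 17 from 27507702 to 27511755 with 93.1% ± 5.43, 1846 bp on chromosome 18 from 19203785 to 19205630 with 92.0% ± 5.19, and 2814 bp on chromosome 9 from 13645928 to 13648741 with 91.1% ± 5.53. Each of these 3 was a single peak in every one of the 22 libraries. The one on chromosome 18 lay 56.5 and 222.1 kb from its neighbours, and the one on chromosome 9 lay 187 and 47.6 kb from its own. Over all 70 the length ran from 502 to 26162 bp with a median of 1429.5 bp, and the outer end of a region shifted between libraries by a median SD of 111 bp.

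Unlike these, the 5 most isolated regions were short and found in few libraries. In this they resembled the isolated regions under 1 kb, which were present in a median of 6 libraries. Of the 43 regions with a nearer neighbour at 100 kb or more, 2 were present in every kept library. On chromosome 10 from 2683898 to 2684921, 1024 bp stood 427.1 and 441.8 kb from the neighbours. Cover there was 0% in all 6 familiar 120 libraries and in 5 of 6 control 120 libraries, with 100% in the other, and it was 0, 100, 71.8, 0 and 0% in familiar 30 and 0, 0, 0, 100 and 0% in control 30. It was thus present in 4 libraries of 3 groups, next to libraries of the same groups without it.

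On chromosome 19 from 19307814 to 19308487, 674 bp stood 312.0 and 398.8 kb away and were present in 7 libraries. On chromosome 8 from 30079287 to 30080229, 943 bp with gaps of 480.3 and 211.9 kb were also present in 7. A pair of neighbours on chromosome 3, of 595 bp from 4458488 to 4459082 and of 554 bp from 4672207 to 4672760, lay 213.1 kb apart and was present in 4 and 3 libraries. None of the 5 was present in more than 3 libraries of a group. Their median folds lay between 2.06 and 2.66, below those of the long domains.

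The library left out of the rule gives a view of the regions that their selection did not use. Familiar 30 replicate 2 touched 51 isolated regions (5.33%) and 4992 other regions (9.60%). By length it touched 2 isolated regions under 1 kb (0.321%, against 0.569% of other regions), 33 of 1 to 3 kb (11.1%, against 6.30%), 12 of 3 to 10 kb (40%, against 25.1%) and 4 of 10 kb or more (80%, against 64.9%). Of the 70 isolated regions present in all other libraries it touched 34 (48.6%), and of the remaining 887 it touched 17 (1.92%). Among other regions present in every library it touched 50.7%. Those were longer, with a median of 3222 bp against 1429.5 bp for the 70. Under 1 kb it touched 0 of 13 isolated regions present in all other libraries, against 10.45% of such other regions. The shares were 54.55% against 35.4% at 1 to 3 kb, 77.8% against 58.2% at 3 to 10 kb, and 75% against 81.6% from 10 kb. This is one library, with no replicate of its own, and the shares were not tested.

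Peaks in isolated regions were narrower than peaks in other consensus regions in all 22 libraries. The median width per library had a median of 698.8 bp (range 647.5 to 742.5) against 1107 bp (1014 to 1154). The median fold was 2.69 (2.57 to 3.03) against 2.77 (2.66 to 2.90) and was lower in 21 of 22 libraries. The median −log10 q was 2.73 (2.44 to 3.56) against 3.02 (2.68 to 3.45), also lower in 21 of 22, and familiar 120 replicate 3 was the exception in both. In regions from 500 bp to just under 1500 bp the order was the reverse: the median fold was 2.61 against 2.53, higher in 20 libraries (not in familiar 120 replicate 3 or control 120 replicate 4), and the median −log10 q was 2.54 against 2.28, higher in 22. These values come from the peaks that defined the regions and were not tested.

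Libraries differed in how many isolated regions they contained. Familiar 120 replicates 1 to 6 had 546, 399, 227, 267, 425 and 462 present, and control 120 replicates 1 to 6 had 378, 520, 380, 509, 538 and 497. Familiar 30 replicates 1, 3, 4, 5 and 6 had 440, 473, 438, 456 and 446, and control 30 replicates 1 to 5 had 436, 411, 393, 416 and 476. Familiar 30 replicate 2 had 6. The groups overlapped, and the lowest kept libraries were familiar 120 replicates 3 and 4.

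The group means were 387.7 ± 120.4 (SD, n = 6) in familiar 120, 470.3 ± 72.02 (n = 6) in control 120, 450.6 ± 14.4 (n = 5) in familiar 30 and 426.4 ± 31.7 (n = 5) in control 30. Without replicates 3 and 4 the mean of familiar 120 was 458 ± 64.1 (n = 4). Those replicates are the lowest kept libraries, so leaving them out had to raise this mean. As a share, 40.5% ± 12.6 of isolated regions were present in a familiar 120 library, 49.1% ± 7.53 in a control 120 library, 47.1% ± 1.499 in a familiar 30 library and 44.6% ± 3.31 in a control 30 library. For other regions the shares were 46.9% ± 12.0 in familiar 120, 52.9% ± 5.46 in control 120, 53.5% ± 4.25 in familiar 30 and 52.0% ± 3.10 in control 30. The isolated share was the lower in 21 of 22 libraries, with control 120 replicate 2 as the exception at 54.3% against 51.5%. These shares take no account of length, and 65.2% of isolated but 38.5% of other regions were under 1 kb. At like length, as given above, the median isolated region was present in more libraries.

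**Figure D4:**
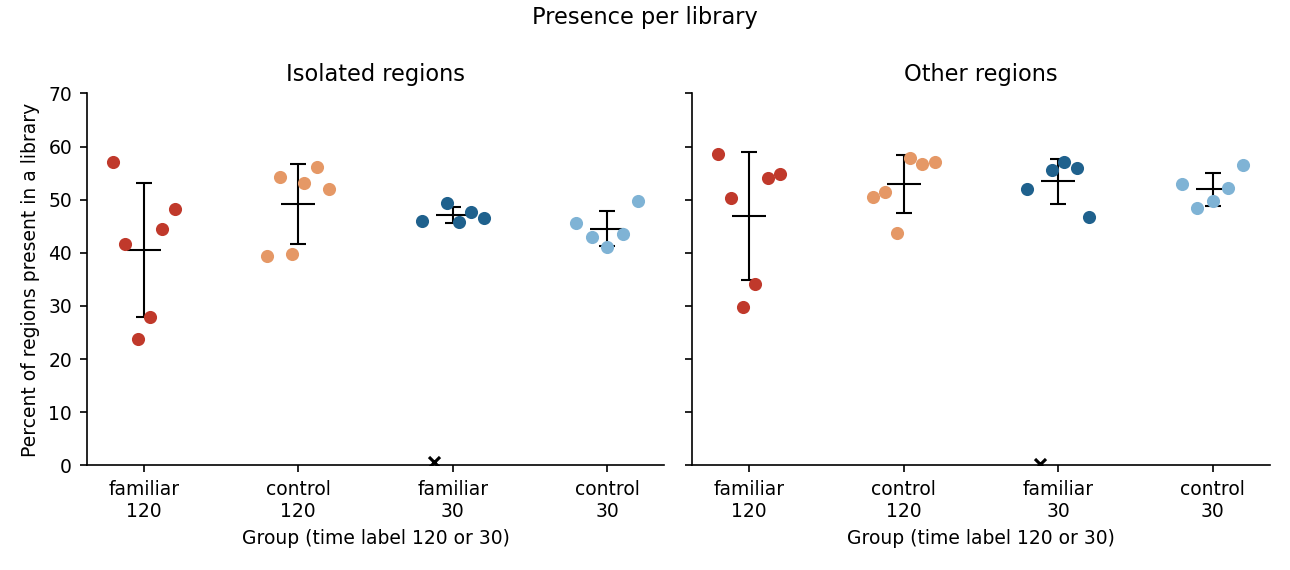
Percent of isolated (left) and other (right) regions present in each library, by group; points are libraries, bars are the mean and SD of the kept libraries, and the cross is familiar 30 replicate 2, left out of the mean. Familiar 120 replicates 3 and 4 lie at 23.7 and 27.9% on the left and at 29.8 and 34.1% on the right, below all other kept libraries.

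The numbers that open the titles fall into 3 ranges, which are treated here as possible batches although no label calls them that. No control 30 library is numbered 17 to 29, where familiar 30 has 1 kept library and each group labelled 120 has 2. Range and group are thus unbalanced for familiar against control at 30 and for 120 against 30 in control fish. Familiar 120 replicates 3 and 4 are the group's libraries numbered 43 to 59, with 227 and 267 regions present (mean 247), against 475.7 on average in the 3 control 120 libraries of that range. The total length under their peaks was low as well, at 67.3 and 69.9 Mb against 78.7 to 91.8 Mb in those control libraries. In the range from 17 to 29 the means were 472.5 in familiar 120 and 449 in control 120 (n = 2 each). In the range from 69 to 80 they were 443.5 (n = 2) in familiar 120 and 497 in the single control 120 library. The part of covered length in these counts was not tested.

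Of the isolated regions, 1 was present in familiar 120 alone (0.104%, against 0.140% of other regions), 4 in control 120 alone (0.418%, against 0.171%), 1 in familiar 30 alone (0.104%, against 0.119%) and 1 in control 30 alone (0.104%, against 0.0962%). These differences were not tested. Present in all libraries of a group were 88 (9.20%) in familiar 120, 163 (17.03%) in control 120, 160 (16.7%) in familiar 30 and 152 (15.9%) in control 30. Of other regions, 11.7% were present in all libraries of familiar 120, 22.9% of control 120, 23.2% of familiar 30 and 20.9% of control 30. All libraries means 6 in a group labelled 120 and 5 in a group labelled 30, so these shares are not at a like threshold. The count of familiar 120 is also bounded by its lowest library, replicate 3, with 227 isolated regions present.

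Whether cover differed between groups was tested with limma on the percent of each region covered, in a single model of the 4 groups over 52924 regions with a mean cover of 5 to 95%. All 957 isolated regions entered. The rule did not use the groups, but a region needs 3 libraries to enter, and where these all come from a single group its difference from the other groups follows from the rule. Differences are in percentage points. The 4 comparisons share groups, so that their values are not independent of each other. In no comparison did a region pass an adjusted p of 0.05, so that 0% was called, and 0 isolated regions were. Fisher's exact test of presence called 0 isolated regions too. With 5 or 6 libraries a group, its p can hardly get small enough to pass adjustment over 52924 regions, and its 0 therefore adds nothing. Because no region passed, the counts at an unadjusted p under 0.05 are given, beside the percent of all tested regions that did the same.

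For familiar against control fish at 30, 18 isolated regions were higher (1.88%, against 1.72% of all regions) and 15 lower (1.57%, against 1.27%) at an unadjusted p under 0.05. Fisher's test gave 3 and 3 of the 957 isolated regions, against 147 and 98 of all 52924. Cover did not overlap between the groups in 2 isolated regions higher in familiar 30 (0.209%, against 0.149% of all) and in 2 lower (0.209%, against 0.111%). These shares are close to those of all regions. The median difference was 1.24 points over isolated and 0.444 over all regions. With familiar 30 replicate 2 included it turned to −4.54 over isolated and −7.69 over all regions. In that fit 5 isolated regions were higher and 28 lower, against 304 and 1441 of all 52977 regions tested.

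The region of smallest p in that comparison was 653 bp on chromosome 6 from 2006795 to 2007447. Its cover was 0, 0, 0, 0 and 31.4% in familiar 30, against 58.3, 99.5, 97.9, 100 and 69.2% in control 30. The groups did not overlap, and the difference of −78.7 ± 19.01 points (SE) had a limma adjusted p of 0.929. At 120 the order was not the same: the lowest, median and highest cover were 0, 51.2 and 95.3% in familiar 120, where 4 of 6 libraries touched it, and 0, 0 and 97.9% in control 120, where 1 of 6 did.

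On chromosome 11 from 2541460 to 2541939, a region of 480 bp had a cover of 0, 100, 91.7, 9.58 and 100% in familiar 30, against 0% in all 5 control 30 libraries. All 12 libraries labelled 120 stood at 0%. The difference at 30 was 60.3 ± 15.0 points (adjusted p = 0.929). On chromosome 3 from 6640938 to 6641880, a region of 943 bp was at 0% in all familiar 30 libraries, against 0, 0, 100, 100 and 100% in control 30, a difference of −60 ± 15.99 points (adjusted p = 0.929), with 0% in every library labelled 120. Both were seen in 3 or 4 libraries of a single group and in none of the other groups, so they entered through that group alone, and their differences are set by that choice and support nothing.

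Among the other regions whose groups did not overlap at 30, 1255 bp on chromosome 7 from 33039115 to 33040369 had 58.7, 55.8, 100, 49.4 and 81.4% in familiar 30, against 44.7, 0, 0, 0 and 29.4% in control 30. On chromosome 10 from 8823016 to 8823999, 984 bp had 40.9, 0, 0, 0 and 56.1% in familiar 30, against 67.6, 57.2, 62.7, 100 and 59.8% in control 30. The region of 502 bp on chromosome 1 named above had 89.4, 90.2, 92.6, 98.6 and 95.8% in familiar 30, against 86.7, 85.5, 87.1, 87.6 and 87.6% in control 30. It was marked in all of them, and the separation was 6.45 ± 6.96 points. The adjusted p was 1 for all 3.

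For familiar against control fish at 120, 7 isolated regions were higher (0.731%, against 0.703% of all) and 47 lower (4.91%, against 3.65%) at an unadjusted p under 0.05. Fisher's test gave 0 and 0 of the 957 isolated regions, against 12 and 86 of all 52924. No isolated region was without overlap and higher, against 0.00945% of all, and 1 was without overlap and lower (0.104%, against 0.104%). The median difference was −7.90 points over isolated regions and −4.13 over all. With familiar 120 replicates 3 and 4 left out, 19 isolated regions were higher and 14 lower, against 1293 and 679 of all 52877 regions tested. The median was then −0.58 points over isolated and 1.05 over all regions. Replicates 3 and 4 were picked as the lowest kept libraries, so leaving them out had to raise the cover of familiar 120. What the lean toward lower cover comes from was not tested.

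The region of smallest p at 120 was 289 bp on chromosome 4 from 11603253 to 11603541. It was at 0% in all 6 familiar 120 libraries, against a lowest, median and highest cover of 0, 86.9 and 100% in control 120, where 4 of 6 libraries had it. The difference was −62.3 ± 14.7 points (adjusted p = 0.915), and all libraries labelled 30 stood at 0%. This region entered through its 4 control 120 libraries alone, so its differences follow from the rule. On chromosome 23 from 1662045 to 1662640, a region of 596 bp had 0, 0 and 56.04% in familiar 120 and 0, 74.1 and 100% in control 120, a difference of −53.8 ± 13.9 points (adjusted p = 0.968). It too was at 0% in every library labelled 30. Of the 6 libraries that touched it 5 were control 120, without which it could not have entered. Its differences thus follow largely from the rule. The groups overlapped in both regions.

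On chromosome 4 from 7542156 to 7542844, a region of 689 bp had a lowest, median and highest cover of 0, 20.03 and 53.7% in familiar 120 and 50.8, 71.3 and 94.3% in control 120 (difference −48.5 ± 13.5 points, limma adjusted p = 0.968). The ranges overlapped, and 3 of 5 familiar 30 and 4 of 5 control 30 libraries also had the region present. The region without overlap at 120, 480 bp on chromosome 2 from 31889302 to 31889781, had 0, 59.1 and 67.7% in familiar 120 and 71.7, 92.0 and 100% in control 120 (difference −46.3 ± 18.2 points, adjusted p = 0.968). The values of 0 on chromosome 2 were those of replicates 3 and 4.

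For 120 against 30 in control fish, 36 isolated regions were higher (3.76%, against 1.75% of all regions) and 14 lower (1.46%, against 1.45%) at an unadjusted p under 0.05. Fisher's test gave 3 and 2 of the 957 isolated regions, against 96 and 62 of all 52924. No isolated region was without overlap, against 0.102% of all higher and 0.1% lower. The median difference was 3.30 points over isolated regions and 0 over all. Leaving out each library in turn gave 26 to 44 isolated regions higher and 10 to 17 lower. Over all regions tested it gave 782 to 1137 higher and 531 to 1093 lower, against 925 and 766 with no library left out. The smallest p fell to the regions on chromosome 23 from 1662045 (63.2 ± 14.6 points) and chromosome 4 from 11603253 (62.3 ± 15.4 points), both higher at 120, and to that on chromosome 3 from 6640938 (−60 ± 15.3 points), each with a limma adjusted p of 1. The regions on chromosomes 4 and 3 had entered through a single group, and that on chromosome 23 could not have entered without control 120, as given above. These differences follow from the rule.

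For 120 against 30 in familiar fish, 5 isolated regions were higher (0.522%, against 0.695% of all) and 37 lower (3.87%, against 3.49%) at an unadjusted p under 0.05. Fisher's test gave 1 and 2 of the 957 isolated regions, against 16 and 146 of all 52924. No isolated region was without overlap, against 0.0113% of all higher and 0.157% lower. The median difference was −5.03 points over isolated and −4.81 over all regions. Without familiar 120 replicates 3 and 4, 23 isolated regions were higher and 10 lower, against 1383 and 783 of all 52877 regions tested. The median was then 0.25 points over isolated and 0.46 over all regions. With familiar 30 replicate 2 included, 10 isolated regions were higher and 9 lower, against 718 and 474 of all 52977 regions tested. That median was 1.89 points over isolated and 3.22 over all regions.

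The smallest p belonged to the region on chromosome 11 from 2541460, at −60.3 ± 14.4 points (adjusted p = 0.697), which had entered through familiar 30 alone. On chromosome 19 from 4507264 to 4507904, a region of 641 bp had a lowest, median and highest cover of 0, 0 and 37.3% in familiar 120, against 97.7, 0, 95.3, 78.3 and 100% in familiar 30 (−68.0 ± 18.9 points, adjusted p = 0.886). On chromosome 14 from 29644679 to 29645340, a region of 662 bp had 63.75, 82.3 and 100% in familiar 120, against 98.3, 0, 0, 0 and 74.2% in familiar 30 (47.5 ± 15.1 points, adjusted p = 0.999). Control libraries all had the region on chromosome 14, at 87.5 to 100% at 120 and 57.3 to 94.1% at 30.

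**Figure D5:**
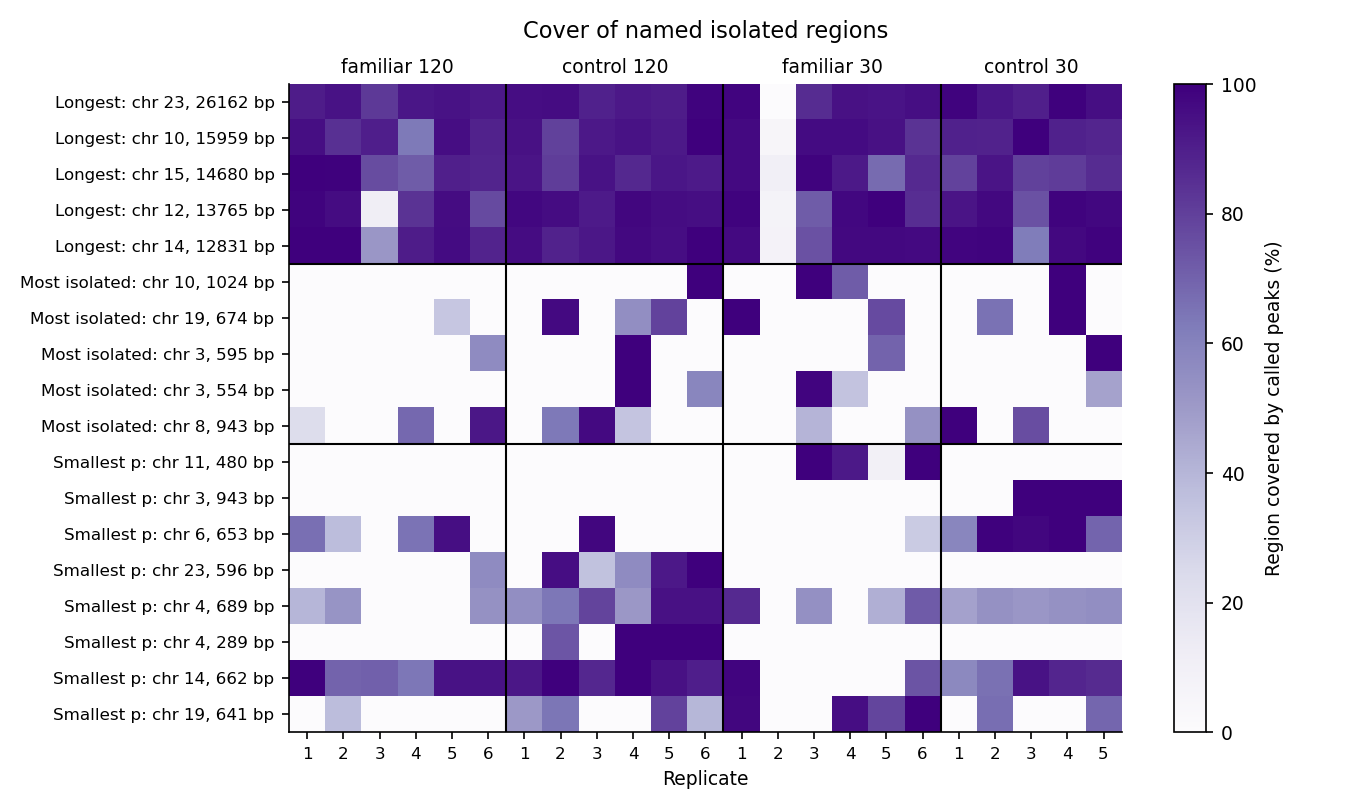
Percent of each named isolated region covered by called peaks (colour, 0 to 100%) in each of 23 libraries (columns, by group and replicate) for the longest, the most isolated and the smallest-p regions (each line gives chromosome and length). The 5 long domains are at least 50% covered in all kept libraries but familiar 120 replicate 3 on chromosome 12 (11.2%), while the most isolated regions reach that in 3 to 7 libraries each.

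The difference between the time labels in familiar fish minus that in control fish was tested in the same model. At an unadjusted p under 0.05, 48 isolated regions (5.02%) differed in either direction, against 4.15% of all regions, and 0 passed adjustment. The median was −9.43 points over isolated and −5.19 over all regions. Without familiar 120 replicates 3 and 4 it was −2.48 over isolated and 0.17 over all regions. No effect of familiarity on an isolated region was therefore shown to differ between 120 and 30.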

How the data were processed

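The study mapped H3K27ac by CUT&RUN, with input DNA by MNase digestion, per the labels' protocols. Tools named in the submitters' processing notes are MACS2, Bowtie2, Trimmomatic 0.39, Picard, SAMtools and FastQC. For genome build, MACS2 settings and use of input, nothing is stated in the sources used here. The authors deposited 1 broad peak list per library, with called peaks, a fold enrichment ratio, −log10 p and −log10 q, and a score for each peak. The −log10 q values deposited by the authors start at 1.002. The score deposited by the authors was not used.

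Groups and numbers came from titles, and replicates were numbered in accession order. Only the titles' numbers mark libraries as separate fish. A p-value here therefore reflects spread among libraries, some of which may be technical. Read depth is unknown, as the lists hold no counts, and a list from fewer reads can hold fewer and narrower peaks. The mitochondrial genome was left out. A model of region cover was fitted in limma 3.58.1 (R 4.3.3) where mean cover was 5 to 95%, with Benjamini-Hochberg adjustment over 52924 regions. The fit was also run on simulated data, with values shuffled over libraries region by region. Such shuffling removes differences that run through a whole library, so the run does not show how the fit behaves with them. Limma's model does not allow for the bounds of cover at 0 and 100%, so Fisher's exact test of presence was an alternative. Peaks in a region were counted by overlap of any base. Other steps used Python 3.11.15, numpy 2.4.6, pandas 2.3.3, scipy 1.17.1 and matplotlib 3.10.9.

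Named regions are for each of 4 comparisons the 3 isolated regions of smallest p, the 5 longest, the 5 most isolated, the 5 with the highest mean cover among those present in every library, and the regions nearest the 30 kb limit, 2 on each side. The longest runs, the regions without overlap and the shortest region present in every library were named after their values were seen. The isolated regions and the rules were chosen with earlier results of these data known. Alternatives were gaps of 20 and 50 kb, bases covered in at least 11 libraries, joining over 1000 bp, peaks whose −log10 q reached 5, all 23 libraries, covered length as a covariate, number range as a block, presence at any overlap, and leaving out each library. Leaving out 3 divergent libraries together, and familiar 120 replicates 3 and 4 together, was added after seeing the data.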

Additional observations from a re-analysis of the deposited data

Results flagged for a closer look

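In 28 sets of 5 or 6 libraries that were examined, 8 values lay far from the others of their group by Dixon's criterion, which chance alone meets in about 1 set in 20. The sets are several measures of the same 4 groups and are not independent. The number of far values therefore cannot be set against that rate. Familiar 30 replicate 2 accounted for 6 of the 8. That library has few peaks and took no part in choosing the regions, so its low counts and cover could be foreseen. It had 6 isolated regions present and 51 touched, with a mean cover of 1.48%. Isolated regions held 0.763% of its peaks, and those peaks had a median width of 512.5 bp and a median fold of 3.18. Familiar 120 replicate 3 accounted for the other 2, with a median fold of 3.03 and a median −log10 q of 3.56 for peaks in isolated regions. At the named regions, 26 of 101 sets of cover by group also held such a value, and cover there is often near 0 or near 100%.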

How the results depend on the processing

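The number of isolated regions was set by the distance asked for, at 1985 for 20 kb and 290 for 50 kb against 957 for 30 kb, and by the peaks used. With only peaks whose −log10 q reached 5 there were 1991, and 226 of the 957 overlapped one of these. Bases covered in at least 11 libraries gave 1426, overlapped by 459 of the 957, and leaving out each library gave 960 to 1007. Present in every library were 163 at any overlap, 97 without 3 divergent libraries (familiar 120 replicate 3, control 30 replicate 3 and familiar 30 replicate 4), and 70 to 89 with each library left out, the highest without familiar 120 replicate 3.

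Of all regions tested, those past the adjusted threshold numbered 0 to 3 (familiar against control at 30), 0 to 1 (at 120), 0 to 1 (120 against 30 in control fish), 0 to 28 (in familiar fish, 28 without familiar 30 replicate 6) and 0 to 1 (difference between these) with each library left out. Without the 3 divergent libraries there were 2, 1 and 2 at 30, at 120 and in familiar fish. Without familiar 120 replicates 3 and 4 there were 2 at 120 and 2 in familiar fish. No isolated region passed in any of these. Median differences over isolated regions moved to −0.58 points at 120 and −2.48 for the difference between effects without those replicates. With all 23 libraries they turned to −4.54 at 30 and 1.89 in familiar fish, and moved to −1.67 for the difference between effects. With covered length as a covariate they were −3.98 at 120 and −0.30 in familiar fish. With number range as a block they were 1.24 at 30, −8.81 at 120, 1.97 in control fish and −5.55 in familiar fish. For the difference between effects the median was then −8.62.

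The 12 named differences gave 338 values under the alternatives. None reversed or passed the threshold, with the lowest limma adjusted p of 0.0868 for chromosome 11 from 2541460 in familiar fish. Many of these values leave out a library of neither compared group and so repeat the main difference. Where a compared group stood at 0% throughout, leaving out a library could not turn the direction. The number of values is therefore no measure of robustness. Counts at an unadjusted p under 0.05 moved by more than 1.5 times. With covered length as a covariate, 13 isolated regions were higher and 30 lower at 120, against 831 and 1195 of all 52924 regions. In familiar fish 17 were higher and 11 lower, against 1151 and 843 of all. With all 23 libraries, 5 isolated regions were higher and 28 lower at 30, against 304 and 1441 of all 52977 regions. In familiar fish 10 were then higher and 9 lower, against 718 and 474 of all. The cause of these moves was not tested. No paired analysis was possible because replicate numbers follow accession order and no label pairs libraries. Read depth is unknown, so a region without a peak in a library is not shown to lack acetylation there.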

Other observations

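Pairs of libraries shared isolated regions less than other regions over all lengths, with a median Jaccard index of presence of 0.459 against 0.535 over 231 pairs. Within a length class the isolated regions had the higher index, at 0.320 against 0.285 under 1 kb, 0.594 against 0.546 at 1 to 3 kb and 0.793 against 0.725 at 3 to 10 kb. The pairs share libraries, so these are descriptions. Familiar 120 replicate 3, control 30 replicate 3 and familiar 30 replicate 4 were picked from these same lists as sharing regions that few other libraries have. Their sharing is therefore set by that choice. Regions present in at least 2 of these 3 and in at most 3 others made up 46 isolated regions (4.81%) and 3467 other regions (6.67%). Touched by these 3 alone were 15 isolated regions (1.57%), against 1.13% of other regions, and such regions entered only through these libraries.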
